A study of Mus musculus with 3 samples.

Results

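Notch1, Notch2, Notch3 and Notch4, which encode the Notch receptors, and Rbpj, Maml1, Maml2 and Maml3, which encode their nuclear partners, are described here by the peaks of CHD7 and SOX2 in and around them. The 8 genes were listed by their role in the pathway, with earlier results of these data known. A peak was taken as a gene's own when it lay within 1 kb of an outer end of the gene, inside the gene, or within 50 kb of it. By this rule the 8 loci held 49 of the 33035 CHD7 peaks and 183 of the 155548 SOX2 peaks, around 8 of 21887 protein-coding genes. The data came from CUT&Tag, in which an antibody brings the Tn5 transposase to the DNA beside a protein, on wild-type mouse otocysts at E10.5. The otocyst is the epithelial vesicle that forms the inner ear. CHD7 is a chromatin remodeler that uses ATP, and SOX2 is a transcription factor of the HMG-box type. A single pool of 34 otocysts was digested with Accutase and split into 3 samples, which received anti-CHD7, anti-SOX2 or no primary antibody, and the last is not analysed here. With 1 library per antibody from mixed cells of pooled embryos, no value has a replicate check, and cell types of the otocyst are not separated.

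Notch signalling passes between touching cells. A ligand on the neighbour leads to cleavage of the receptor, and the freed intracellular part enters the nucleus, where it joins RBPJ on DNA and recruits a Mastermind-like coactivator, encoded by the Maml genes. Without the receptor fragment RBPJ can hold target genes silent with corepressors. In the inner ear the pathway is known for marking prosensory epithelium, for limiting the number of neuroblasts and for sorting hair cells from supporting cells.

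Read depth is not given by the peak lists. Each peak carries a total signal, the coverage summed over its bases, whose scaling is not known, so strength is given as a percentile, the share of peaks of the same list with an equal or lower total signal. Coverage takes whole multiples of a smallest unit, called a step here. The median of the peaks' maxima stood at 20 steps for CHD7 and at 6 for SOX2. As a check of the tissue label, the otic genes Pax2, Pax8, Gbx2, Dlx5, Oc90, Tbx2 and Eya1 each had peaks of both lists in their loci, as did 82.7% of all protein-coding genes, so this says little about the tissue. Gbx2, Dlx5 and Tbx2 had a CHD7 peak at an outer end, and Pax2, Pax8, Oc90 and Eya1 had none there. Within 1 kb of an annotated start, Pax2 and Gbx2 had peaks of both lists and Pax8 had neither. Dlx5, Tbx2, Oc90 and Eya1 had no annotated start to compare. A peak does not measure expression.

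The windows that hold the start sites come first, because at 6 of the 8 genes peaks of both lists lay within 1 kb of an annotated start. The 250 bases before a start are printed 5′ to 3′ on the gene's strand for 5 genes, from RefSeq (GRCm38.p6, the build also called mm10). Capitals mark TGGGAA, the core recognised by RBPJ, and ACAAT, a SOX core, on either strand. Rbpj is shown for its pair of TGGGAA matches under the strongest SOX2 start peak of the 8 genes, and Notch1 as a receptor with peaks of both lists at the start. Maml2 is shown for a CpG-poor window with peaks of both lists, Maml3 for a start with a SOX2 peak alone, and Notch4 for a start with neither.
Rbpj, chr5:53590096-53590345, plus strand: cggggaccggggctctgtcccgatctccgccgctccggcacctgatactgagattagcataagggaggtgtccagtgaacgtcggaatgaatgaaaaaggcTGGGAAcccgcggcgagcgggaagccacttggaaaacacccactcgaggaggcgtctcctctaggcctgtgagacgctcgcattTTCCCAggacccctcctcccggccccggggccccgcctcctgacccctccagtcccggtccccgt
Notch1, chr2:26503823-26504072, minus strand: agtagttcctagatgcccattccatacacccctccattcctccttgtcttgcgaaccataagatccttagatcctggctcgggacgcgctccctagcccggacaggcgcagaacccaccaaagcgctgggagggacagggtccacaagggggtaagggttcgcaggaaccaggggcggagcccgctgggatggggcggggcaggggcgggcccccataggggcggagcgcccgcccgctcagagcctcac
Maml2, chr9:13297708-13297957, plus strand: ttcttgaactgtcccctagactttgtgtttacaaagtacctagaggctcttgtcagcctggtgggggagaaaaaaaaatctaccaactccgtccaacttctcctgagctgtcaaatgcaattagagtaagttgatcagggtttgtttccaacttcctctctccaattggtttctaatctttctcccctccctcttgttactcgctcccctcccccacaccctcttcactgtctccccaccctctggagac
Maml3, chr3:52105007-52105256, minus strand: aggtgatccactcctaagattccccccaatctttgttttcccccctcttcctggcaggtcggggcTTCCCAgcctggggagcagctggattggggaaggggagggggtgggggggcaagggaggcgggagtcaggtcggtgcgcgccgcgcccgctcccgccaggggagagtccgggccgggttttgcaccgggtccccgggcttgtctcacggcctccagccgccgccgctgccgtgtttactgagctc
Notch4, chr17:34564045-34564294, plus strand: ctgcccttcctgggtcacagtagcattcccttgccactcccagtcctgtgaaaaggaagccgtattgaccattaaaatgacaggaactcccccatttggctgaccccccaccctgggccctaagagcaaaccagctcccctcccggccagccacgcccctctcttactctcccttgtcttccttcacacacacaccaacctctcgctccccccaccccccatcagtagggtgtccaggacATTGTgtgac

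All 8 genes matched the promoter table, with 10 start windows, since Rbpj and Maml2 have 2 each. TGGGAA or its reverse complement was found in 4 of the 10 windows, those of Rbpj, Maml3 and the second start of Maml2. It is in 20.9% of the 21263 windows of protein-coding genes. In the first Rbpj window the matches began 149 and 65 bases before the start, on opposite strands, and the second also falls in the overlapping window of the second start. Windows with 2 or more matches make up 2.71% of all. ACAAT was in 2 windows, those of Notch4 and the second start of Maml2, and in 25.1% of all windows. The E-box CACGTG was in 0 of 10 and in 6.63% of all. The motifs do not overlap in the windows shown, and a match is a description of letters only. CpG dinucleotides numbered 34 for Notch2 and 21 for the first Rbpj start, against 4 for Notch4 and 2 for the first Maml2 start, with a median of 10 over all windows. Few CpG thus went with no peak at Notch4 and with peaks of both lists at Maml2.

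Peaks of both lists lay at the start of 6 of the 8 genes: Notch1, Notch2, Notch3, Rbpj, Maml1 and Maml2. Maml3 had a SOX2 peak there without CHD7, and Notch4 had neither. Over 17492 protein-coding genes with an annotated start, 31.0% had a CHD7 peak within 1 kb of it, 54.9% a SOX2 peak and 28.2% both. With the stronger 50% of each list, CHD7 was at 3 of the 8 starts and both at 2, against 19.4% and 17.9% of all genes. Most SOX2 peaks at these starts ranked high within their list. The strongest start peak was above the 90th percentile at 6 of the 7 genes that had one, against 42.5% of all 9605 genes with a SOX2 start peak. The median was 92.5 against 86.6. Notch1, Notch2, Maml2 and Maml3 were only just above that limit, at 91.5 to 93.1, so the count depends on the limit chosen. Notch3 reached 94.2 and Rbpj 98.9, and Maml1 was at 25.1. CHD7 peaks at the starts did not rank high. None of the 6 genes passed the 90th percentile, against 12.9% of 5423 genes, and their median was 48.0 against 63.2. These are descriptions, and no test of a difference was made.

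**Figure D1:**
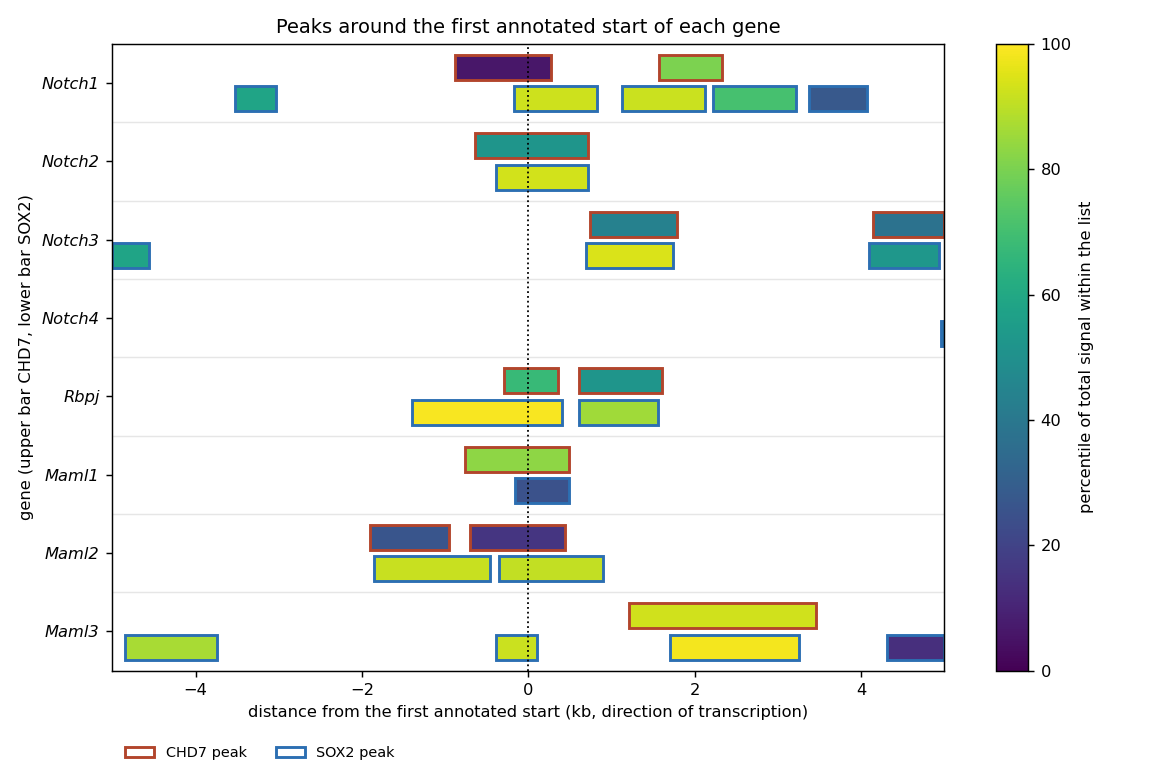
Peaks within 5 kb of the first annotated start of each gene; the horizontal axis is distance in kb along the direction of transcription, the upper bar of each gene is CHD7, the lower SOX2, and the fill is the percentile of total signal within the list. Notch4 has no peak within 1 kb of its start, and the CHD7 peak of Maml3 begins 1206 bases after the start.

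Rbpj, the DNA-binding partner of all Notch receptors, had no peak at either of the outer ends that the gene table gives. Its outer border on the side of the start lies 34.6 kb before the first start in the promoter table. At the starts inside the gene it carried peaks of both lists. A CHD7 peak on chromosome 5 at 53590051 to 53590700 (total signal 811, percentile 67.3) covered the first start, and a SOX2 peak at 53588951 to 53590750 (total signal 5952, percentile 98.9) lay over it. Their regions of maximum signal were 550 bases apart. A second pair followed, with its nearest border 605 bases after the first start, a CHD7 peak at 53590951 to 53591950 (percentile 52.3) and a SOX2 peak at 53590951 to 53591900 (percentile 85.6). The third CHD7 peak, at 53627801 to 53628750, lay 37.9 kb after the start and was weak (percentile 17.0). A SOX2 peak of percentile 58.5 had 300 bases in common with it, and their maxima were 25 bases apart. All 3 CHD7 peaks of the locus were thus shared, and none lay outside the gene. The 13 SOX2 peaks were split into 5 inside and 8 in the flanks, and the highest percentile in the flanks was 78.6. Of all protein-coding genes with an annotated start, 1708 have every start over 1 kb from both outer ends, as Rbpj does.

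Notch1 had 7 CHD7 and 31 SOX2 peaks, Notch2 3 and 16, Notch3 4 and 14, and Notch4 3 and 19. With the stronger 50% of the list each of the 4 receptors had 2 CHD7 peaks, and with flanks of 100 kb they had 8, 7, 6 and 5, so the CHD7 counts do not set Notch1 apart under these settings. The SOX2 counts were 19, 10, 6 and 12 with the stronger 50%, and 45, 32, 19 and 36 with 100 kb. With the full lists and flanks of 50 kb, Notch1 had 4.80 CHD7 and 21.2 SOX2 peaks per 100 kb of locus. These are at the 94.8th and 98.3rd percentile of all protein-coding loci. Notch2, in a locus of 237 kb, had 1.27 and 6.76, at the 44.8th and 44.1st percentile. Notch3 had 2.74 and 9.58, and Notch4 had 2.41 and 15.3. The median over all loci was 1.54 for CHD7 and 7.41 for SOX2. The percentiles are not matched for gene length or gene density.

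**Figure D2:**
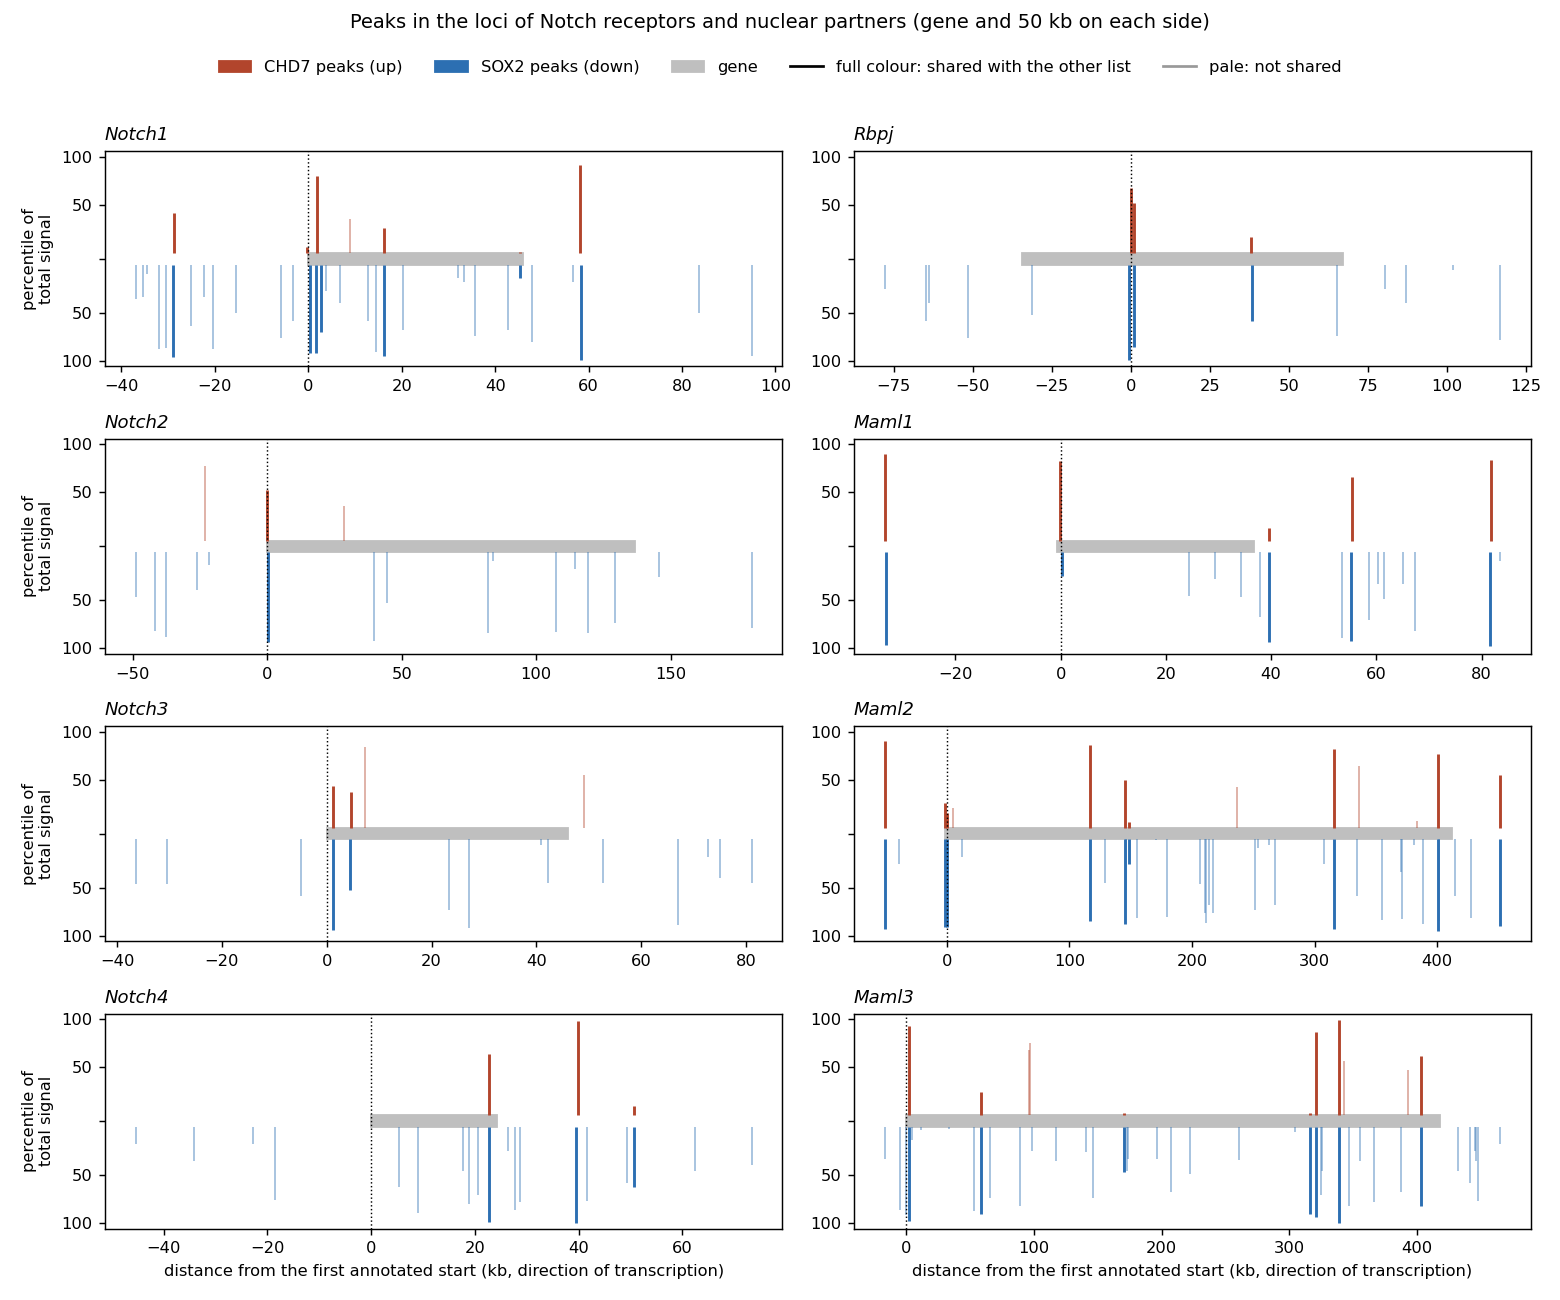
Peaks of the 8 loci by distance from the first annotated start in kb, along the direction of transcription; CHD7 peaks point up and SOX2 peaks down, with a height equal to the percentile of total signal, shared peaks in full colour and the gene as a grey bar. Shared peaks of Notch1 lie on the start, just after it and spread over the rest of the locus. Several of those of Maml3 lie in the far part of the gene, and the 3 CHD7 peaks of Rbpj all stand opposite a SOX2 peak.

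Notch1, a receptor known from the otic epithelium, had its strongest intragenic CHD7 peak just after the start and not on it. The CHD7 peak that covers the start, on chromosome 2 at 26503551 to 26504700, had a total signal of 446 and a percentile of 6.22, close to the lowest total signal of the list, 433. It also lies within 1 kb of an end of Gm35978. The SOX2 peak that covers it, at 26503001 to 26504000, had a total signal of 2346 and a percentile of 92.5. At 1.95 kb into the gene a CHD7 peak at 26501501 to 26502250 (total signal 1047, percentile 80.1) overlapped 2 SOX2 peaks, and the one with more bases in common, at 26501701 to 26502700, had a percentile of 92.0. At 16.2 kb a weaker CHD7 peak (26487001 to 26488300, percentile 26.2) lay within a SOX2 peak of percentile 95.1 (26486851 to 26488400), and their maxima were 50 bases apart. Before the gene, 28.8 kb from the start, a CHD7 peak of percentile 41.7 (26532201 to 26533000) lay within a SOX2 peak of percentile 95.8. The other gene end had a CHD7 peak with a total signal of 433 and a SOX2 peak with 821 (percentile 13.6), which also lie at an end of 0610009E02Rik, a gene outside the protein-coding set. The strongest peaks of the locus were not at Notch1: the CHD7 peak at 26444751 to 26446550 (percentile 91.6) and the SOX2 peak on it (percentile 99.3) lay at the ends of Sec16a and 0610009E02Rik. In all 6 of 7 CHD7 peaks were shared, and 12 of the 31 SOX2 peaks were inside the gene.

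Notch2 and Notch3 each had shared peaks at the start and little sharing elsewhere. At Notch2, on chromosome 3, a CHD7 peak at 98012901 to 98014250 (total signal 669, percentile 52.3) and a SOX2 peak at 98013151 to 98014250 (total signal 2434, percentile 93.1) covered the start. The other 2 CHD7 peaks had no SOX2 on them, 23.3 kb before the start (percentile 77.6) and 28.7 kb after it (percentile 36.2). All 15 other SOX2 peaks were unshared as well. They include a peak of 100 bases, 37.7 kb before the start, with a maximum of 34 steps and a percentile of 88.6. At Notch3, on chromosome 17, the pair lay within the gene, 740 bases after the start at its nearest border for CHD7: 32165101 to 32166150 for CHD7 (percentile 43.7) and 32165151 to 32166200 for SOX2 (percentile 94.2). A second pair followed 4.71 kb after the start, with percentiles of 37.6 and 52.8. The strongest CHD7 peak of the Notch3 locus, 7.36 kb into the gene at 32159151 to 32159900 (total signal 1198, percentile 84.4), had no SOX2 peak.

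Notch4, a receptor best known from endothelium, stood apart from the other receptors in having no peak of either list within 1 kb of its start. Its pair of end peaks lay at the other end of the gene, 22.7 kb after the start: a CHD7 peak on chromosome 17 at 34586051 to 34588000 (total signal 779, percentile 64.3) and a SOX2 peak at 34586101 to 34588100 (total signal 4985, percentile 98.5). The maxima of this pair were 475 bases apart, and no CHD7 peak lay elsewhere inside the gene. The strongest pair of the locus belonged to the shared end region of Rnf5, a ubiquitin ligase gene, and Agpat1, a gene of phospholipid synthesis. There a CHD7 peak at 34603101 to 34605300 had a total signal of 4377 (percentile 98.8) and a SOX2 peak at 34602601 to 34604900 had 17154 (percentile 99.9). In this gene-dense stretch all 3 CHD7 peaks were shared, and 13 of the 19 SOX2 peaks were outside Notch4.

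The 3 coactivator genes each had another layout. Maml1, of 37.5 kb, had no CHD7 peak inside it away from its ends. On chromosome 11 a CHD7 peak at 50291851 to 50293100 (total signal 1139, percentile 83.0) covered the start, the strongest CHD7 start peak of the 8 genes. The SOX2 peak on it, at 50291851 to 50292500, was the weakest SOX2 start peak (total signal 821, percentile 25.1), so the order of the lists was the reverse of that at Notch1 and Maml2. The CHD7 peak is also within 1 kb of an end of Canx, which encodes the chaperone calnexin, so it cannot be assigned to either gene. All 5 CHD7 peaks of the locus were shared. Of the other 4, a peak with percentile 13.4 lay 39.5 kb after the start, beyond the far end of the gene, and 3 lay at ends of Sqstm1, Ltc4s and Canx.

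Maml2, of 413 kb, had 13 CHD7 and 35 SOX2 peaks, of which 9 and 29 were inside the gene and away from its ends. At its first start, on chromosome 9, a CHD7 peak at 13297251 to 13298400 (percentile 15.6) and a SOX2 peak at 13297601 to 13298850 (percentile 90.8) covered the start. A second pair lay just before it, at 13296051 to 13297000 for CHD7 (percentile 26.2) and at 13296101 to 13297500 for SOX2 (percentile 91.5). The second annotated start, far inside the gene, had no peak of either list within 1 kb. The strongest pairs within the gene were far from the start. At 117 kb a CHD7 peak at 13414301 to 13415150 (total signal 1298, percentile 86.4) met a SOX2 peak of percentile 84.9, with maxima 25 bases apart. At 316 kb one at 13613101 to 13614700 (percentile 82.3) met a SOX2 peak of percentile 93.2, and at 401 kb one at 13698351 to 13698650 (percentile 77.5) met a SOX2 peak of percentile 94.8. The highest CHD7 percentile of the locus, 90.1, was at an end of Ccdc82, 50.7 kb before the start.

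Maml3, of 418 kb, held the strongest peaks found inside any of the 8 genes. On chromosome 3 a CHD7 peak at 51766001 to 51766900 had a total signal of 5620 (percentile 99.2, maximum of 109 steps), and a SOX2 peak at 51765251 to 51766900 had 12022 (percentile 99.8, maximum of 41 steps). Their regions of maximum signal had the same midpoint. The place lies 339 kb after the start, and a further 3 CHD7 peaks stood within 51761951 to 51789300. Of these, 51783551 to 51784450 (percentile 86.8) and 51788751 to 51789300 (percentile 3.02) were shared, and 51761951 to 51762500 was not. Near the start a broad CHD7 peak at 52101551 to 52103800 (total signal 1835, percentile 92.9) lay on a narrower SOX2 peak, 52101751 to 52103300 (total signal 4721, percentile 98.3). This CHD7 peak began 1206 bases after the annotated start and so missed the window of 1 kb. The SOX2 peak on the start itself, at 52104901 to 52105400 (percentile 91.8), had no CHD7. All 11 CHD7 peaks were inside the gene, and 7 were shared. No exon positions were at hand, so exonic and intronic places were not told apart for any peak.

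Counted by outer gene ends, 6 of the 8 genes had a CHD7 peak, 7 a SOX2 peak and 6 both, against 30.8%, 59.7% and 28.3% of all protein-coding genes. With the stronger 50% of each list these were 3, 7 and 3 genes, against 19.2%, 47.7% and 17.7% of all genes. With the 10000 strongest peaks they were 1, 2 and 0, against 13.3%, 16.9% and 9.06%. The 6 are not the same as for starts: Notch4 enters through its far end and Rbpj drops out. Away from the ends, CHD7 peaks lay inside 6 genes and SOX2 peaks inside all 8, against 22.2% and 56.7% of genes. Maml2 held 9 and Maml3 11 of the 29 CHD7 peaks of this kind, and 29 and 30 of the 97 SOX2 peaks. Their density inside the gene, 2.18 and 2.63 CHD7 peaks per 100 kb, was below the 6.53 of Notch1. For SOX2 it was 7.02 and 7.18 against 26.1. Notch4 and Maml1 had no such CHD7 peak. Inside peaks are set by the outer ends, so they include start peaks of Rbpj in both lists and a SOX2 peak on the first Maml2 start. The shares of all genes are not matched for gene length.

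**Figure D3:**
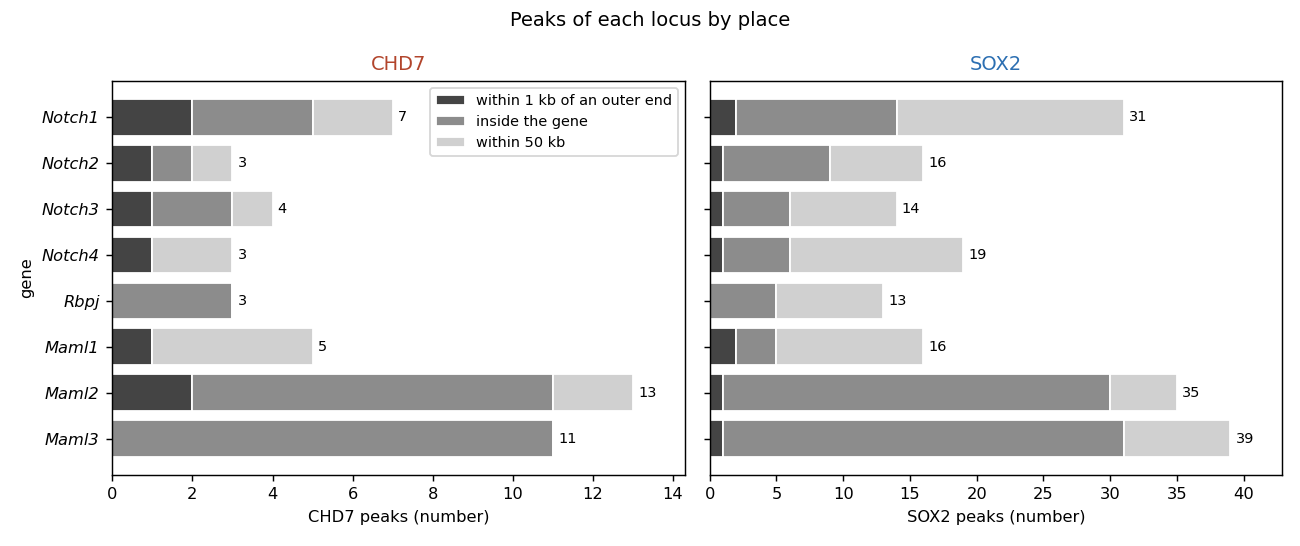
Number of CHD7 (left) and SOX2 (right) peaks of each locus, with shades for peaks within 1 kb of an outer gene end, inside the gene and within 50 kb. Maml2 and Maml3 have most CHD7 peaks, 13 and 11, of which 9 and 11 lie inside. The Notch1 locus has 31 SOX2 peaks, of which 12 lie inside the gene of 45.9 kb, 2 at its ends and 17 in the flanks.

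In the 8 loci 36 of the 49 CHD7 peaks shared at least 1 base with a SOX2 peak, or 73.5% (exact 95% binomial interval 58.9% to 85.1%). The share over the whole CHD7 list was 65.3%, which is inside that interval. Of the SOX2 peaks 37 of 183 were shared, or 20.2% (14.7% to 26.8%). The whole SOX2 list gave 14.7%, which before rounding is just above the lower bound and so also inside the interval. The intervals cover counting error only, and peaks of 1 library are not independent samples. All 8 CHD7 peaks at outer ends were shared, as were 18 of 29 inside the genes and 10 of 12 in the flanks. Of those 12 flanking peaks, 8 lay within 1 kb of an end of another gene. Over all protein-coding genes, 6192 of the 6742 with a CHD7 end peak also had a SOX2 end peak, so sharing at ends is common. That count is by gene and not by overlap, and whole-list shares for the other places are not given here. Sharing was least at Notch2 (1 of 3) and Notch3 (2 of 4) and complete at Notch4, Rbpj and Maml1. In shared pairs the lists had a median of 800 bases in common, and the midpoints of the maximum-signal regions were a median of 150 bases apart, within 200 bases in 22 of 36.

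Shared SOX2 peaks ranked higher than unshared ones in these loci, with a median percentile of 92.2 (n = 37) against 51.7 (n = 146). Shared CHD7 peaks did not, at 53.9 (n = 36) against 54.9 (n = 13). Shared CHD7 peaks were wider, with a median of 1025 against 750 bases, and lower, with a median maximum of 16.5 against 32 steps. Shared SOX2 peaks were wider too, with a median of 1000 against 650 bases, and higher, at 8 against 5 steps. Total signal is summed over the bases of a peak, so width enters the percentile. The same comparison over the whole lists is not given here. Peaks of a locus share a library and are not replicates, so no test was made. Median percentiles over all peaks of the loci were 54.9 for CHD7 and 62.5 for SOX2. The strongest 5% of the lists supplied 2 of the 49 CHD7 peaks, at Maml3 and at Rnf5 and Agpat1 beside Notch4, and 10 of the 183 SOX2 peaks. Of those 10, 3 were in the Notch1 locus, 2 each in the loci of Notch4, Maml1 and Maml3, and 1 in that of Rbpj. Several lay at ends of neighbours. The Maml1 peaks were at ends of Sqstm1 (97.6) and Canx (96.7). The peak of percentile 99.3 in the Notch1 locus was at an end of Sec16a, and that of 99.9 in the Notch4 locus at Rnf5 and Agpat1.

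**Figure D4:**
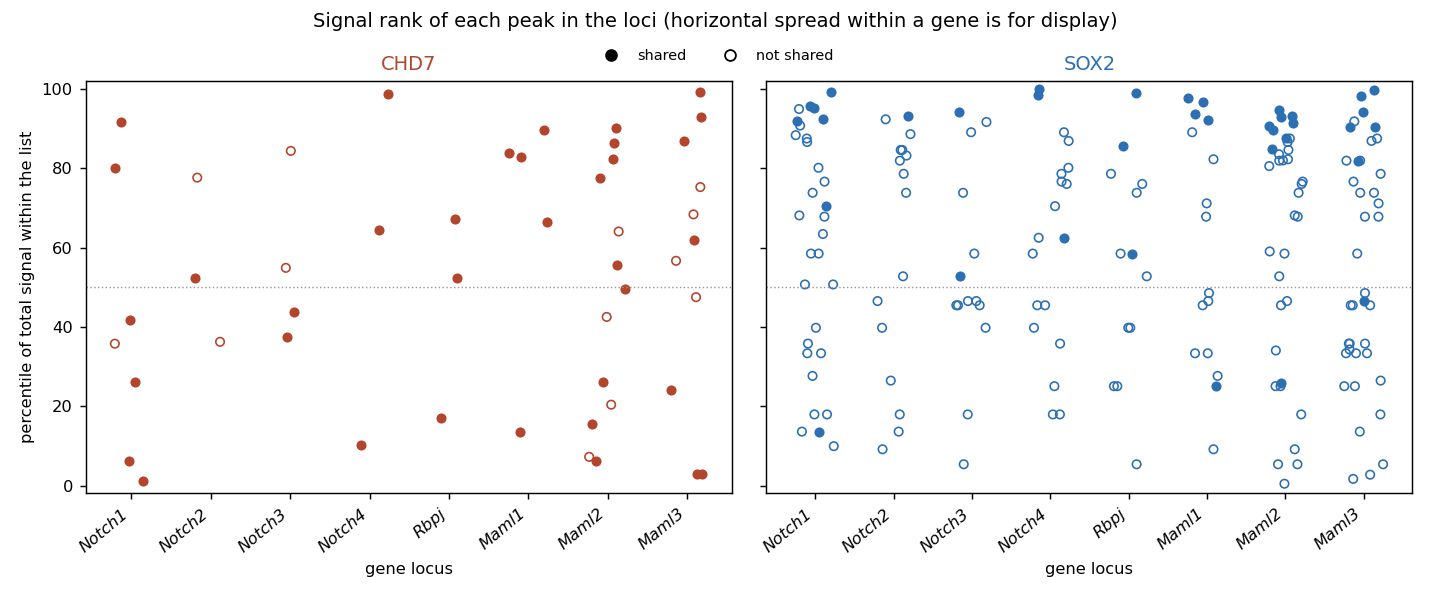
Percentile of total signal within its list for each peak of the 8 loci, CHD7 left and SOX2 right, with filled points for shared and open points for unshared peaks. Filled SOX2 points gather near the top (median 92.2), and filled CHD7 points spread over the whole range (median 53.9).

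Other genes of the pathway, 54 in number, showed how the receptors and nuclear partners sit among them. An end peak of CHD7 was present at 31 of 54 (57.4%), of SOX2 at 44 (81.5%) and of both at 27 (50%), beside the 30.8%, 59.7% and 28.3% of all genes. Of the 7 effectors, the targets that answer the signal, 6 had both. Hes7 had a summed end signal of 7460 for CHD7 and 12667 for SOX2, and Hey2 had 1207 and 12990, while Heyl had neither. Summed end signal takes in both outer ends of a gene. Within 1 kb of the annotated start Hes7 had 1211 and 1056, and Hey2 had 1207 and 11348. The ligands were the reverse for CHD7, with 1 of 7 against 6 of 7 for SOX2. Jag1 was the one with both (1061 and 6392), and Dll3 had neither. Among 5 fringe and sugar-modifying enzymes, which tune the response of receptors to ligands, 2 had CHD7 and 5 SOX2, with Lfng (861 and 9442) and Pofut1 (474 and 821) holding both.

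Of the 9 proteases and subunits that cleave the receptor, 5 had CHD7, 6 SOX2 and 3 both. Aph1c, a gamma-secretase subunit gene, had 2068 and 3548, Adam10 had 1362 and 2229, and Psen2 had neither at an outer end. Trafficking and turnover genes had CHD7 at 8 of 12 and SOX2 at 11, with both at 8. Fbxw7, whose product marks the receptor fragment for degradation, had 1334 and 5630, Dtx3 had 1248 and 3695, and Itch had neither. Corepressors and cofactors that meet RBPJ had CHD7 at 9 of 14 and SOX2 at 10, with both at 7. Hdac1 had 606 and 2874, and Kat2a had neither. The difference between groups was not tested.

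**Figure D5:**
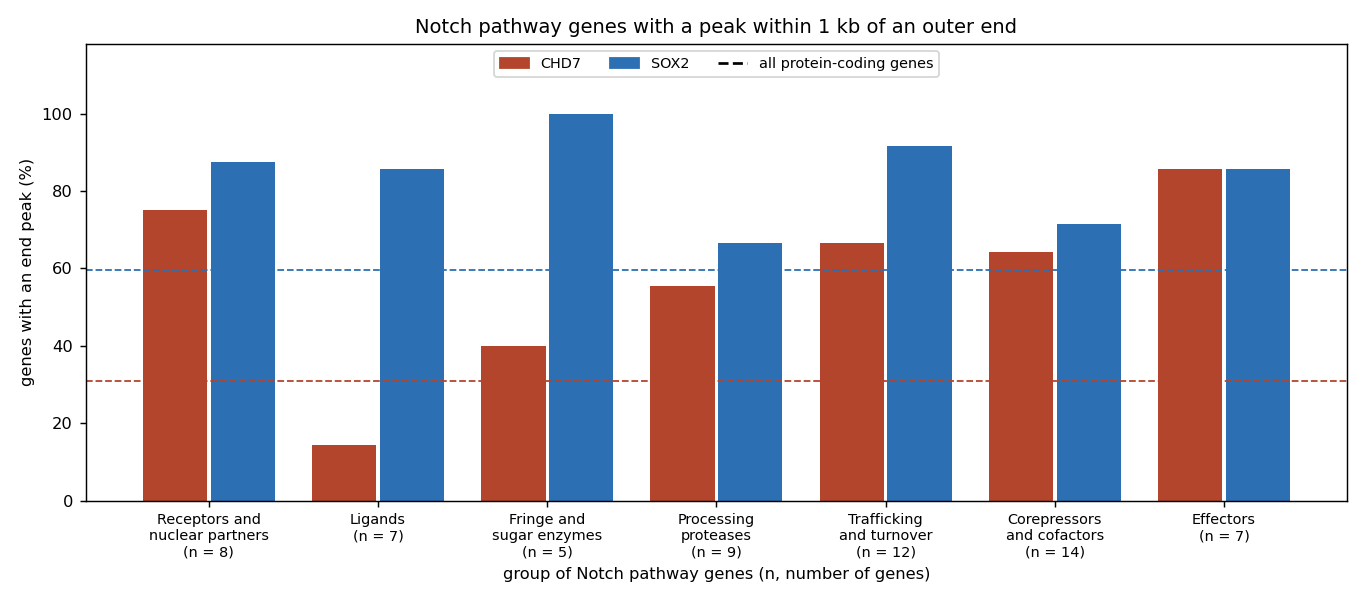
Percent of genes with a CHD7 or SOX2 peak within 1 kb of an outer end, for the 8 receptors and nuclear partners and 6 groups of other Notch pathway genes; dashed lines are all protein-coding genes, 30.8% for CHD7 and 59.7% for SOX2. The ligands are below the CHD7 line, with 14.3%, and the effectors are highest for CHD7, with 85.7%.

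By their counts of end, inside and flanking peaks in both lists (6 values, compared as the Euclidean distance of log2(count + 1)), the closest other pathway gene was Mib2 for Maml1 (distance 0.49) and Kat2b for Notch4 (0.68). It was Dtx4 for Notch3 (1.01), Neurl1a for Notch2 (1.16) and Psen2 for Rbpj (1.18). The 6 values come from 2 libraries.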

How the data were processed

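CUT&Tag peaks of 1 CHD7 and 1 SOX2 library were analysed. Per the submitters' processing notes, the tools were Bowtie2, deepTools and SEACR and the build was mm10. Their versions and thresholds, and how the control and duplicates were used, are not given in the sources at hand. The deposited signal values are coverage summed over a peak and its highest coverage, as the authors' lists give them, with borders on bins of 50 bases. Signal was ranked within a list only. Every maximum signal under 20 was a whole number of steps (tolerance 0.02 of a step) of 0.0911 for CHD7 and 0.586 for SOX2.

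Outer gene ends came from a RefSeq table (GRCm38.p6) and starts with strand from a RefSeq promoter table of the same build. A peak took the first class that applied: outer end (1 kb), inside, flank (50 kb). Coordinates count from 1. Shared means at least 1 base in common, and a pair's partner is the peak with most bases in common. Shares carry Clopper-Pearson intervals at 95%. No test was run, since each antibody has 1 library.

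The genes and pathway lists were chosen with earlier results of these data known. Named by rule were the 8 genes, neighbours with an end at a peak, the pathway gene most alike to each, and from each pathway group up to 2 genes with both proteins at an end (by the worse rank of summed end signal) and 1 with neither. Peaks described were those at starts and ends, the strongest of a locus and its strongest shared pairs, and further peaks of the 8 loci chosen after their values were seen. Neighbours without an end peak were also named after seeing this. Some genes that the rule names are not reported here. Windows, flanks, stronger peak sets and sharing rules were varied. The functions were tested on simulated data. Intervals came from scipy 1.17.1, tables from pandas 2.3.3 with numpy 2.4.6, and figures from matplotlib 3.10.9, under Python 3.11.15.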

Additional observations from a re-analysis of the deposited data

How the results depend on the processing

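Counts at the genes fell with stricter peak sets. With the stronger 50% of each list the genes with an end peak numbered 3 for CHD7 and 3 for both, the genes with a start peak 3 for CHD7 and 2 for both, the peaks inside genes 15 for CHD7 and 60 for SOX2, and the locus peaks 27 and 106. The other pathway genes then had CHD7 at 18 and both at 15. With the 10000 strongest peaks of each list, end peaks were at 1 gene for CHD7, 2 for SOX2 and 0 for both, inside peaks numbered 9 and 6, locus peaks 16 and 15, and other pathway genes 14, 14 and 6. The shares of locus peaks became 50% for CHD7 and 53.3% for SOX2. With SOX2 cut to as many peaks as CHD7, SOX2 peaks numbered 33 inside genes and 61 in loci, 47.5% of the latter were shared, and SOX2 was at 23 other pathway genes. With ends of 500 bases 3 genes had both. When the maximum-signal regions had to share a base, 24.5% of CHD7 and 6.56% of SOX2 peaks were shared. The other 45 of these pooled values stayed within 1.5 times the count, or within the interval of the share. Flanks of 25 or 100 kb and leaving out peaks at ends of other genes (37 CHD7 and 154 SOX2 peaks left) were among these. Counts of single loci moved more, 44 by over 1.5 times and 36 by less, with 11 of the former under the stronger 50%, 16 under the 10000 strongest, 8 under the shortened SOX2 list, 6 with 100 kb and 3 with 25 kb. At 100 kb Notch2 went from 3 to 7 CHD7 and from 16 to 32 SOX2 peaks, Notch4 from 3 to 5 and from 19 to 36, Maml1 from 16 to 28 SOX2 and Rbpj from 13 to 20 SOX2. At 25 kb Maml1 went from 5 to 3 CHD7, Notch3 from 14 to 9 SOX2 and Rbpj from 13 to 8 SOX2. The start of Maml3 counts for CHD7 with a window of 2 kb (7 genes). No paired analysis was possible because each antibody has 1 library. Depth is unknown, and the weak CHD7 peaks at the starts of Notch1 and Maml2 lie near the lowest total signal of the list.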

Other observations

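Within the 8 loci lay 23 other protein-coding genes, wholly or in part. An end peak inside the locus was found for 9 of them in the CHD7 list and for 17 in the SOX2 list, and all 9 had both. Over all protein-coding genes 30.8% had a CHD7 end peak, 59.7% a SOX2 end peak and 28.3% both. Sec16a, an organiser of export sites of the endoplasmic reticulum beside Notch1, reached percentiles of 91.6 for CHD7 and 99.3 for SOX2. Sqstm1, an autophagy receptor gene beside Maml1, reached 83.9 and 97.6, and Canx reached 89.6 and 96.7. Ccdc82, beside Maml2, reached 90.1 and 93.0. Pbx2 and Gpsm3, beside Notch4, had SOX2 peaks of up to percentile 86.9 and no CHD7. Neighbours without an end peak of either list inside the locus were Gm5544, Ephx3, Ager, Prrt1, Mtmr2 and Mgst2.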
